A study of Mus musculus with 7 samples.

Results

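Iron handling was followed through 10 genes of the iron pathway in EML cells, a mouse multipotent blood progenitor line, sorted by the surface marker CD34. The genes are Tfrc, Trf, Slc11a2, Steap3, Slc25a37, Slc25a38, Fth1, Slc40a1, Ireb2 and Aco1, chosen by name from the 20464 rows of the expression table, and each had exactly 1 row. There were 3 CD34-positive libraries and 4 CD34-negative libraries, made from sorted live cells that did not bind Annexin V, a stain for dying cells. The EML line came from bone marrow cells carrying a retroviral dominant-negative retinoic acid receptor and grows on stem cell factor, the ligand of Kit, and the labels name no drug or further genotype that separates the groups. The labels also give strain C57BL/6 and the tissue bone marrow, while the source label names the line. For the CD34-negative libraries the genotype label has CD43 in place of CD34, and grouping went by title. The descriptions number the libraries as well: replicate 1 of both groups is number 3, replicate 2 of both is number 2, and CD34-positive replicate 3 shares number 4 with CD34-negative replicates 3 and 4, the last of them written 4a. Differences within a number are CD34-positive minus CD34-negative, and within number 4 they are taken against the mean of both CD34-negative libraries and called the difference within replicate 3.

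Cells take up most iron bound to transferrin, which the transferrin receptor carries into endosomes. There a ferrireductase reduces the iron and a divalent metal transporter moves it to the cytosol, from where carriers of the inner mitochondrial membrane bring it to the sites of heme and iron-sulfur cluster synthesis. Ferritin stores what is not used and ferroportin exports it. A pair of iron regulatory proteins, encoded by Aco1 and Ireb2, binds RNA hairpins called iron-responsive elements when iron is low. Bound in a 3' untranslated region they protect the transcript from decay, and bound in a 5' untranslated region they block translation without having to change the RNA level. Developing red cells direct most of their iron into heme.

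The hairpins are shown because they are what the regulatory proteins read. Where found, their place tells members whose RNA level can be set through the 3' end from those controlled at translation. A search of GENCODE M21 transcripts (GRCm38) for a bulged C, 5 bases, the loop CAGTGN with a last base other than G, and 5 pairing bases (Watson-Crick or G with T) found a match in 3 of the 10 members. Over all protein-coding symbols 222 of 21877 had one, or 1.01%. Tfrc had 4, in its 3' untranslated region on the plus strand. The windows are 30 bases long, written 5′ to 3′ as DNA with the loop in capitals.
Tfrc, chr16:32631219-32631248: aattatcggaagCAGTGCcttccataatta
Tfrc, chr16:32631598-32631627: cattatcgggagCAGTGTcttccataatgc
Tfrc, chr16:32631663-32631692: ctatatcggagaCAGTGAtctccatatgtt
Tfrc, chr16:32631710-32631739: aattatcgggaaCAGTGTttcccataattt
Fth1, 5' untranslated region, plus strand, chr19:9982732-9982761: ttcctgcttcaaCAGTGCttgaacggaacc
Slc40a1, 5' untranslated region, minus strand, chr1:45925464-45925493: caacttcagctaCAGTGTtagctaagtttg
Ftl1, the ferritin light chain and no member, 5' untranslated region, minus strand, chr7:45459778-45459807: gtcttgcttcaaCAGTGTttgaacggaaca
The strict pattern found none in the other members, including all 6 protein-coding transcripts of Slc11a2, which says only that these letters were not there. Of 11 genes known to carry such elements, Slc11a2 among them, the pattern found 6, so it does not sort all members.

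The table gives FPKM, fragments counted per kilobase of a transcript and scaled to the fragments mapped, so levels can be set beside each other between genes. No source used here gives the number of fragments behind them, and no counting interval is printed. Each library had between 8606 and 9117 genes at 1 FPKM or more. The 82 ribosomal protein genes took 2.32% to 4.25% of the summed FPKM in the 3 libraries of number 4 and 27.8% to 37.4% in the other 4, so the libraries of number 4 stand apart in both groups. The small RNA gene Mir703 alone took 34.6% in CD34-negative replicate 3 and 13.2% in CD34-negative replicate 4. Cd34 was listed at 147, 256 and 153 FPKM in the CD34-positive libraries, against 91.8, 19.3, 2.67 and 6.02 FPKM in the CD34-negative libraries, and the gap was smallest within replicate 1. Kit, the receptor the line depends on and named after its values were seen, lay at 91.1 to 311 FPKM in CD34-positive and 44.7 to 522 FPKM in CD34-negative libraries. Of 9 B and T cell markers 8 stayed below 1 FPKM in all 7 libraries. In bulk RNA, fewer cells of a type and less RNA per cell cannot be told apart.

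The members that differed most were the endosomal reductase Steap3 and the metal transporter Slc11a2, both lower in CD34-positive cells, and transferrin, Trf, which was higher. The estimates of the receptor Tfrc and the iron carrier Slc25a37 lay near 0. Of the 10 members 9 reached the minimum of 1 FPKM in at least 3 libraries and were tested. The limma fit on log2(FPKM + 1) ran over all 9259 genes past that minimum, with Benjamini-Hochberg adjustment. No member passed an adjusted p of 0.05, and neither did any gene of the table (0%), with a smallest adjusted p of 0.256. At an unadjusted p under 0.05, 2 members were lower in CD34-positive cells, beside 2.27% of all tested genes, and 1 was higher, beside 3.38%. With the description number as a block no member passed the adjusted threshold either (0% of all genes). The unadjusted counts with the block were 3 lower members, beside 9.14% of all genes, and 1 higher, beside 12.8%. Without a block, leaving out CD34-positive replicate 3, or both replicate 1 libraries, took the 2 lower members to 0. Nothing in the labels makes the replicates separate cultures, so each p measures library spread that may be technical.

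Differences were also taken within the numbers. Of the 9 tested members 4 were lower in CD34-positive cells within all 3 numbers (Steap3, Slc11a2, Slc25a38 and, by at most 0.08 on the log2 scale, Aco1), beside 25.0% of all tested genes. Another 3 were higher within all 3 numbers (Trf, Ireb2 and Fth1), beside 29.0%. The groups did not overlap for 1 lower member, Steap3, beside 3.01% of all genes, and for no higher member, beside 2.67%. The median log2 difference of the tested members was -0.13, against 0.09 over all tested genes.

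**Figure D1:**
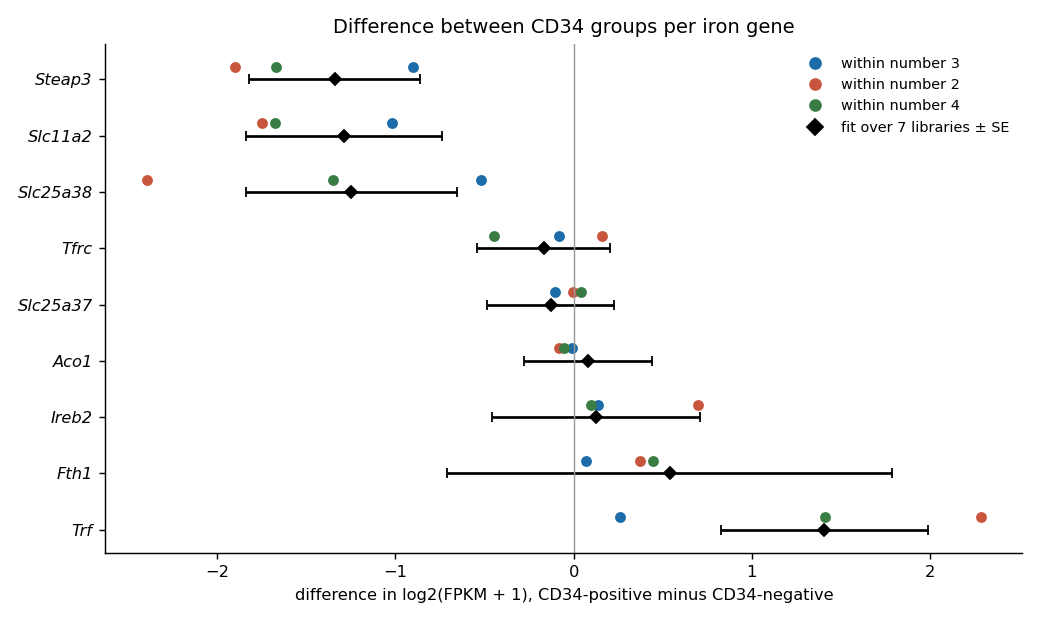
Difference in log2(FPKM + 1), CD34-positive minus CD34-negative, for the 9 tested members. Diamonds with bars are the limma estimate ± SE over 3 and 4 libraries, and dots are the differences within each description number; Steap3 (-1.34), Slc11a2 (-1.29) and Slc25a38 (-1.25) lie left of 0 with all their dots, and Trf (1.41) lies right of 0.

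Uptake starts with Tfrc, the transferrin receptor, whose 4 hairpins are given above. Tfrc was listed at 67.0, 84.8 and 65.1 FPKM in the CD34-positive libraries, against 71.1, 75.9, 62.7 and 126 FPKM in the CD34-negative libraries. The groups overlapped, and 1 CD34-negative library, replicate 4, lay above all others. CD34-positive cells averaged 72.3 ± 10.9 FPKM and CD34-negative cells 83.9 ± 28.5 FPKM (SD, n = 3 and 4). The limma difference was -0.17 ± 0.38 on the log2 scale (SE, adjusted p = 0.9999). Within replicates 1, 2 and 3 it was -0.08, 0.16 and -0.44, and the last came from replicate 4: CD34-positive replicate 3 stood 0.05 above CD34-negative replicate 3 and 0.94 below replicate 4 on that scale. Without CD34-negative replicate 4 the estimate turned to 0.04.

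Trf encodes transferrin, the plasma carrier of iron, which the liver makes in bulk. Trf was listed at 197, 194 and 149 FPKM in the CD34-positive libraries, against 164, 39.0, 87.2 and 35.1 FPKM in the CD34-negative libraries. The groups overlapped only through CD34-negative replicate 1, the library in which Cd34 was also highest among the negatives. CD34-positive cells averaged 180 ± 26.5 FPKM and CD34-negative cells 81.2 ± 59.9 FPKM (SD, n = 3 and 4). Its log2 difference was 1.41 ± 0.58 (SE, limma adjusted p = 0.847), and within replicates 1, 2 and 3 it was 0.26, 2.29 and 1.41. In the fit with no block, Trf was no longer under an unadjusted p of 0.05 without CD34-negative replicate 2 or 4, or without any 1 of the CD34-positive replicates.

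Hepatocyte markers were measured beside Trf, since liver cells are its usual source. Of 9 such markers 7 were below 1 FPKM in all 7 libraries, and 4 were listed at 0 throughout: Alb (albumin), Ttr (transthyretin), Serpina1a (an antitrypsin) and Fgb (a fibrinogen chain). Their summed level was 2.63 to 3.66 FPKM in CD34-positive and 1.44 to 2.99 FPKM in CD34-negative libraries. Hnf4a, a nuclear receptor of liver and gut, made up most of it in every library but CD34-negative replicate 3, at 3.33, 3.40 and 2.11 FPKM in CD34-positive against 2.95, 1.59, 0.642 and 0.849 FPKM in CD34-negative libraries. Its log2 difference was 0.72 ± 0.35 (SE, limma adjusted p = 0.990). The part of such cells in the difference of Trf was not tested.

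Steap3 is the ferrireductase that reduces transferrin iron in the endosomes of red cell precursors. Its FPKM were 15.8, 17.5 and 6.90 FPKM in the CD34-positive libraries, against 30.5, 67.9, 19.8 and 29.3 FPKM in the CD34-negative libraries. Every CD34-positive library lay below every CD34-negative one. CD34-positive cells averaged 13.4 ± 5.68 FPKM and CD34-negative cells 36.9 ± 21.2 FPKM (SD, n = 3 and 4). On the log2 scale the difference was -1.34 ± 0.48 (SE, limma adjusted p = 0.713), and within replicates 1, 2 and 3 it was -0.90, -1.90 and -1.67. Without CD34-positive replicate 3 it was no longer under an unadjusted p of 0.05.

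Slc11a2, the divalent metal transporter that carries the reduced iron out of the endosome, ran close to Steap3 library by library. Slc11a2 was listed at 14.3, 18.7 and 5.37 FPKM in the CD34-positive libraries, against 29.9998, 65.0, 15.7 and 23.9 FPKM in the CD34-negative libraries. The groups overlapped through 2 libraries, since CD34-positive replicate 2 lay above CD34-negative replicate 3. CD34-positive cells averaged 12.8 ± 6.78 FPKM and CD34-negative cells 33.7 ± 21.7 FPKM (SD, n = 3 and 4). The log2 difference was -1.29 ± 0.55 (SE, limma adjusted p = 0.867), and within replicates 1, 2 and 3 it was -1.02, -1.75 and -1.68. Its unadjusted limma p with no block was 0.0453, and most single left-out libraries took that p above the unadjusted threshold. It was 0.0814, 0.0911 and 0.056 without CD34-negative replicate 1, 2 or 4, and 0.0652 and 0.176 without CD34-positive replicate 1 or 3. It was 0.0206 without CD34-negative replicate 3 and 0.0301 without CD34-positive replicate 2. With no filter it was 0.0579.

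The block moved Steap3 and Slc11a2 nearest to the adjusted threshold. With the description number as a block the log2 difference was -1.51 ± 0.23 for Steap3 and -1.50 ± 0.21 for Slc11a2 (SE), each with a limma adjusted p of 0.0931. Both passed with the block when CD34-positive replicate 1, CD34-negative replicate 1, both of these, or CD34-negative replicate 3 was left out, where 0.883%, 0.927%, 0.802% and 1.50% of all tested genes were lower at that threshold too. The settings without a replicate 1 library were the same contrast, since a library alone in its block says nothing on the difference. They gave -1.77 for Steap3 and -1.71 for Slc11a2. Steap3 and Slc11a2 also passed with the block after rescaling without ribosomal protein genes, at limma adjusted p of 0.00782 and 0.00691. Trf (0.00588) and Slc25a38 (0.0252) then passed too, beside 1.63% of all genes lower and 4.71% higher. The differences of Steap3 and Slc11a2 were smaller there and their errors larger, at -1.36 ± 0.33 and -1.36 ± 0.32 (SE). When small RNA genes such as Mir703 were also left out of that rescaling, a choice made after seeing the data, no member passed, and Steap3 and Slc11a2 were at 0.0886. Over all fits with a block the limma adjusted p ran between 0.00782 and 0.532 for Steap3 and between 0.00691 and 0.532 for Slc11a2, and it was highest without CD34-positive replicate 3.

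**Figure D2:**
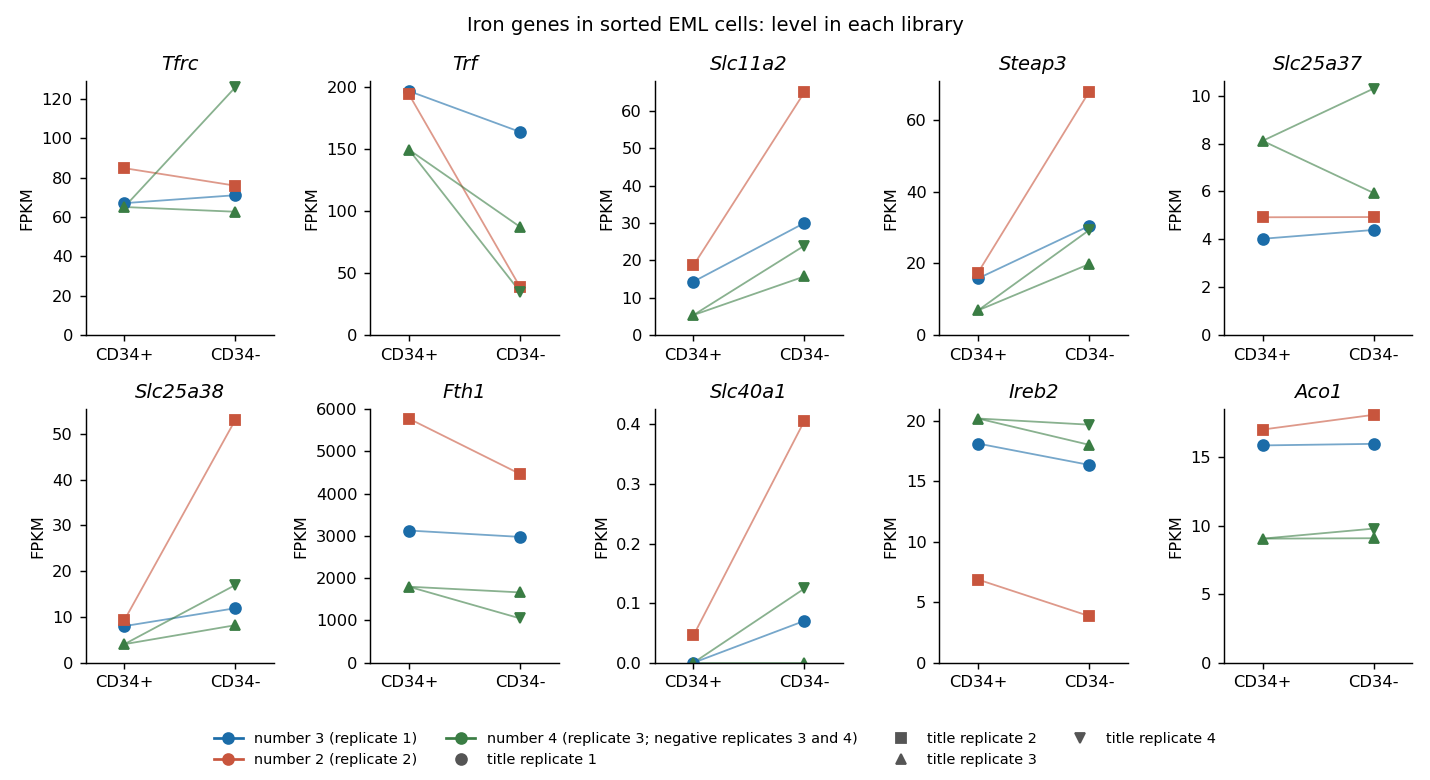
FPKM of each of the 10 members in all 7 libraries, 1 panel per gene, with CD34-positive libraries on the left and CD34-negative libraries on the right of each panel and lines joining equal description numbers. The CD34-positive points of Steap3 (6.90 to 17.5 FPKM) lie below all its CD34-negative points (19.8 to 67.9 FPKM), while those of Tfrc (65.1 to 84.8 FPKM) lie within its CD34-negative range (62.7 to 126 FPKM).

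Most erythroid markers stood lower in CD34-positive cells as well, though none passed the adjusted threshold. Of 7 tested 6 were lower within all 3 numbers, beside 25.0% of all tested genes, and 5 were lower at an unadjusted p under 0.05, beside 2.27%, with a median log2 difference of -2.62 against 0.09 over all tested genes. The summed level of the 9 erythroid markers in the table was 59.2 to 650 FPKM in CD34-positive and 144 to 2061 FPKM in CD34-negative libraries, and Hbb-b1, a beta globin with near-identical copies, made up most of it in replicate 2 of both groups and in CD34-positive replicate 3. Hbb-b1 was the exception in direction, 0.83 higher within replicate 3 on the log2 scale. Gata1, a transcription factor of the red cell line, was listed at 23.96, 16.3 and 4.61 FPKM in CD34-positive against 67.1, 167, 55.8 and 70.9 FPKM in CD34-negative libraries. No erythroid marker was at 0 in all libraries, though the red cell anion exchanger Slc4a1 stayed below 1 FPKM throughout. Their part in the differences of Steap3, Slc11a2 and Slc25a38 was not tested.

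Promoters were searched because Gata1 and these members were low in the same libraries. RefSeq windows (GRCm38.p6, 300 bases each around a gene's start) were given for 6 members, 11 windows in all. The letters AGATAA or AGATAG or TGATAA or TGATAG, on either strand, were found in 2 of these 11 windows, 1 of Fth1 and 1 of Steap3, and in 9778 of 32851 windows overall (29.8%). The window of Slc25a38 had no match, and no window was given for Slc11a2. Fth1 was not lower in CD34-positive cells. The Steap3 window is printed with these letters in capitals, both read on the opposite strand; which of its 4 starts is used in EML cells is not known, and a match is no evidence of binding.
Steap3, minus strand, chr1:120271031-120271330: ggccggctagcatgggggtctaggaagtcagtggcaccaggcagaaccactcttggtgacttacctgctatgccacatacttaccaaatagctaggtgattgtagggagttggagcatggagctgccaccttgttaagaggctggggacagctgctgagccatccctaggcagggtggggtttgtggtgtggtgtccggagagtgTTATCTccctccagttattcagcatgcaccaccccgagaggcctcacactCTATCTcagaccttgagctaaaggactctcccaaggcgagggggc

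Of the mitochondrial carriers, Slc25a38 was lower within every number and Slc25a37 was not. Slc25a37, known as mitoferrin, carries iron across the inner mitochondrial membrane and is abundant in red cell precursors. It was listed at 4.02, 4.92 and 8.11 FPKM in the CD34-positive libraries, against 4.39, 4.93, 5.94 and 10.3 FPKM in the CD34-negative libraries. The groups overlapped, and the libraries of number 4 were the highest ones in both groups, at 5.94 to 10.3 FPKM against 4.02 to 4.93 FPKM in numbers 2 and 3. The log2 difference was -0.13 ± 0.36 (SE, limma adjusted p = 0.9999), and within replicates 1, 2 and 3 it was -0.10, -0.00 and 0.04.

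Slc25a38 carries glycine into mitochondria, where the first step of heme synthesis uses it. Slc25a38 was listed at 7.99, 9.29 and 4.05 FPKM in the CD34-positive libraries, against 11.9, 53.1, 8.20 and 17.0 FPKM in the CD34-negative libraries. CD34-negative replicate 2 was far above the rest, and the groups overlapped only through CD34-negative replicate 3, which lay below CD34-positive replicate 2. CD34-positive cells averaged 7.11 ± 2.73 FPKM and CD34-negative cells 22.5 ± 20.7 FPKM (SD, n = 3 and 4). The log2 difference was -1.25 ± 0.59 (SE, limma adjusted p = 0.968). Within replicates 1, 2 and 3 it was -0.52, -2.39 and -1.35, and with the block it was -1.41 ± 0.37 (SE, limma adjusted p = 0.106).

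The heme enzymes that use this glycine and iron are given for comparison. Of 8 tested, 7 were lower in CD34-positive cells within all 3 numbers, beside 25.0% of all tested genes, and 3 at an unadjusted p under 0.05 (Alad, Cpox and Ppox), beside 2.27%, with a median log2 difference of -1.02. With the block the count at that p was 6, beside 9.14% of all genes. Alas2, the red cell form of the enzyme that consumes glycine, stayed below the minimum, at 0.223, 0.0406 and 0.159 FPKM in CD34-positive against 0.766, 2.9999, 1.95 and 0.831 FPKM in CD34-negative libraries.

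The wider list of mitochondrial iron transport and iron-sulfur assembly held 21 genes with a row, all of them tested. At an unadjusted p under 0.05, 1 was lower in CD34-positive cells, beside 2.27% of all tested genes, and none was higher, and with the block 6 were lower, beside 9.14%. Within all 3 numbers 11 were lower, beside 25.0% of all genes, and 1 was higher, beside 29.0%: Hspa9, a mitochondrial chaperone. The median log2 difference was -0.14, or -0.27 with the block, where the median of all tested genes was 0.04. Abcb10, an inner membrane transporter known in mouse red cell precursors to bind and stabilise mitoferrin, was listed at 17.9, 18.4 and 8.76 FPKM in CD34-positive against 26.8, 66.5, 24.7 and 32.6 FPKM in CD34-negative libraries. Its groups did not overlap, as for 3.01% of all tested genes in the lower direction, and its log2 difference was -1.22 ± 0.43 (SE, limma adjusted p = 0.707).

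With the block Abcb10 differed by -1.34 ± 0.25, and Glrx5 and Abcb6 by -1.00235 ± 0.22 and -1.01 ± 0.20 (SE), each at a limma adjusted p of 0.0931 and among the 6 lower ones. Without the block the last pair had larger errors. Glrx5, a glutaredoxin that hands on iron-sulfur clusters, had a log2 difference of -1.02 ± 0.58 (SE, limma adjusted p = 0.9999) and within replicates 1, 2 and 3 stood at -0.79, -1.32 and -0.92. Abcb6, a porphyrin transporter named after its values were seen, was at -0.71 ± 0.74 (SE, limma adjusted p = 0.9999) and within replicates 1, 2 and 3 at -0.42, -1.40 and -1.15. Slc25a28, the second mitoferrin, which most tissues use, was listed at 12.6, 15.8 and 12.9 FPKM in CD34-positive against 15.2, 18.2, 12.9 and 11.4 FPKM in CD34-negative libraries. It stood above Slc25a37 in every library.

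**Figure D3:**
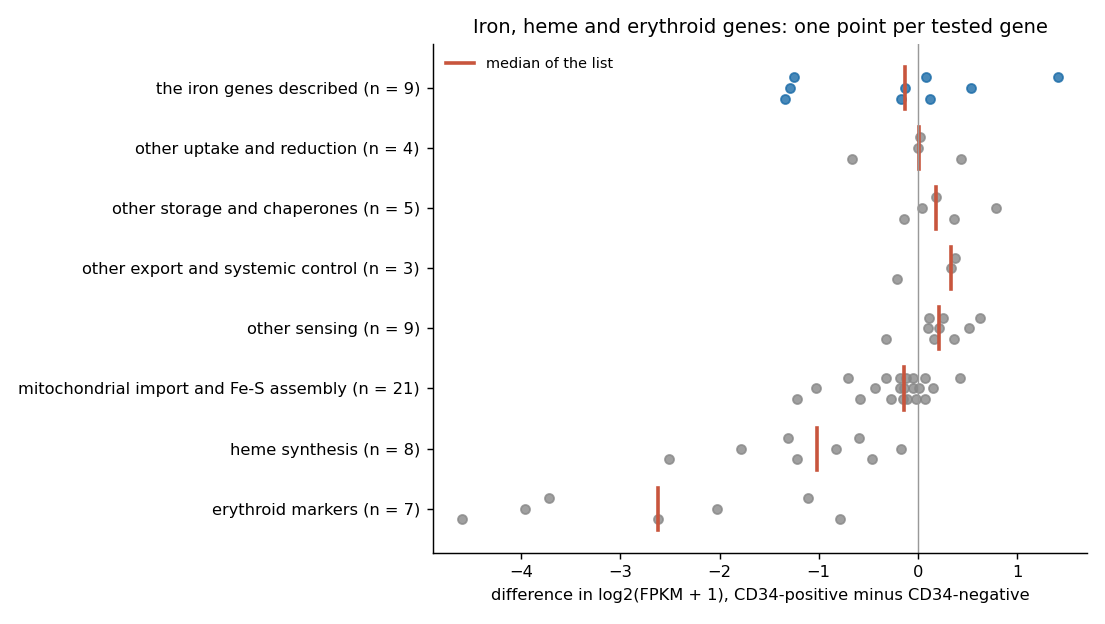
Difference in log2(FPKM + 1), CD34-positive minus CD34-negative, with 1 point per tested gene for the members and the other lists and a red line at each median. The heme synthesis genes (median -1.02) and erythroid markers (median -2.62) lie to the low side, while the median of the 9 tested members is -0.13.

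Storage rests on Fth1, the ferritin heavy chain, by far the most abundant member. Fth1 was listed at 3125, 5770 and 1797 FPKM in the CD34-positive libraries, against 2975, 4463, 1662 and 1049 FPKM in the CD34-negative libraries. Level followed the description number more than the group: the libraries of number 4 lay at 1049 to 1797 FPKM and those of numbers 2 and 3 at 2975 to 5770 FPKM. CD34-positive cells averaged 3564 ± 2023 FPKM and CD34-negative cells 2537 ± 1515 FPKM (SD, n = 3 and 4). The limma estimate was 0.54 ± 1.25 on the log2 scale (SE, adjusted p = 0.9999), and within replicates 1, 2 and 3 it was 0.07, 0.37 and 0.44. Ferritin genes have near-identical processed copies, so reads may have been split among them and the levels are uncertain.

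Of 8 storage genes besides the member 7 had a row and 5 were tested, none at an unadjusted p under 0.05 and with the block 1 (Ncoa4, higher, beside 12.8% of all genes), with a median log2 difference of 0.18. Ftl1, the ferritin light chain, was listed at 1609, 1470 and 527 FPKM in CD34-positive against 2015, 2100, 962 and 487 FPKM in CD34-negative libraries, a log2 difference of -0.14 ± 0.97 (SE, limma adjusted p = 0.9999). Ncoa4, the receptor that sends ferritin to the lysosome, was at 172, 133 and 91.9 FPKM in CD34-positive against 151, 40.1, 79.9 and 61.5 FPKM in CD34-negative libraries. Its log2 difference was 0.79 ± 0.51 (SE, limma adjusted p = 0.9999), and with the block 0.72 at a limma adjusted p of 0.213. The iron chaperone Pcbp2 differed by 0.18, and Pcbp4, of the same protein family, by 0.36 on the log2 scale, both at a limma adjusted p of 0.9999.

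Export was close to undetected. Slc40a1, ferroportin, was listed at 0, 0.0459 and 0 FPKM in the CD34-positive libraries, against 0.0703, 0.406, 0 and 0.125 FPKM in the CD34-negative libraries. It was the 1 member below the minimum and was not tested, and no fold is given. Macrophages, which export much iron, were looked for with 13 symbols for 12 markers, all 12 with a row. Of these markers 11 were below 1 FPKM in all 7 libraries, and C1qa, Vcam1 and Spic were among those at 0 in all. The summed level was 9.37 to 13.2 FPKM in CD34-positive and 3.77 to 13.0 FPKM in CD34-negative libraries, most of it Cd68. Of 15 genes of export, heme breakdown and systemic control 13 had a row and 3 were tested, with no call at an unadjusted p under 0.05, 1 with the block (Slc48a1, lower, beside 9.14% of all genes) and a median log2 difference of 0.33. Hmox2, the constitutive heme oxygenase, was at 27.7, 35.1 and 26.3 FPKM in CD34-positive against 24.1, 25.2, 25.9 and 18.5 FPKM in CD34-negative libraries. Its groups did not overlap, as for 2.67% of all tested genes in the higher direction, with a log2 difference of 0.33 ± 0.28 (SE, limma adjusted p = 0.9999). Hmox1, the inducible one, lay at 45.8 to 79.5 FPKM in CD34-positive and 20.1 to 78.9 FPKM in CD34-negative libraries. The heme transporter Slc48a1 differed by -0.22 ± 0.64 (SE, limma adjusted p = 0.9999), and with the block by -0.48 at a limma adjusted p of 0.177.

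Sensing showed no call. Ireb2, which encodes the regulatory protein that is degraded when iron is plentiful, was listed at 18.1, 6.87 and 20.2 FPKM in the CD34-positive libraries, against 16.3, 3.86, 18.002 and 19.7 FPKM in the CD34-negative libraries. Replicate 2 was the low library of each group, and the groups overlapped. The log2 difference was 0.13 ± 0.58 (SE, limma adjusted p = 0.9999), and within replicates 1, 2 and 3 it was 0.14, 0.70 and 0.10. Without CD34-negative replicate 2 the estimate turned to -0.37.

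Aco1 encodes the regulatory protein that doubles as a cytosolic aconitase when it holds an iron-sulfur cluster. It was listed at 15.9, 17.0 and 9.06 FPKM in the CD34-positive libraries, against 16.0, 18.1, 9.09 and 9.79 FPKM in the CD34-negative libraries. Libraries of equal number nearly coincided, and those of number 4, at 9.06 to 9.79 FPKM, lay below those of numbers 2 and 3, at 15.9 to 18.1 FPKM. The log2 difference was 0.08 ± 0.36 (SE, limma adjusted p = 0.9999), and within replicates 1, 2 and 3 it was -0.01, -0.08 and -0.05. With the block it was -0.05, so the sign depends on the fit.

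Of 10 other sensing and turnover genes, all with a row, 9 were tested, none at an unadjusted p under 0.05, with a median log2 difference of 0.21. Fbxl5, the iron-sensing subunit of the ligase that degrades the Ireb2 protein and named after its values were seen, lay at 4.64 to 5.86 FPKM in CD34-positive and 3.75 to 5.67 FPKM in CD34-negative libraries. Zfp36l2, an RNA-binding protein that promotes decay of AU-rich transcripts, was higher at an unadjusted p under 0.05 with the block, by 0.49 (limma adjusted p = 0.152). It was the only such gene of this list, beside 12.8% of all tested genes. Of 14 other uptake and reduction genes 13 had a row, 4 were tested and 5 were listed at 0 in all libraries, among them the other ferrireductases Steap1, Steap2 and Steap4. Exoc6, an exocyst subunit that mouse red cell precursors need to recycle transferrin, was listed at 11.03, 7.50 and 8.98 FPKM in CD34-positive against 13.7, 13.3, 12.1 and 22.6 FPKM in CD34-negative libraries. Its groups did not overlap, as for 3.01% of all tested genes in the lower direction, and its log2 difference was -0.67 ± 0.31 (SE, limma adjusted p = 0.941). With the block it was -0.64 ± 0.24 (SE, limma adjusted p = 0.187), now under an unadjusted p of 0.05. Exoc6 was the only gene of its list called there, beside 9.14% of all tested genes lower, and none was called without the block. The second transferrin receptor, Tfr2, was not analysed here. Of 11 genes known to carry iron-responsive elements, 4 of them members, all had a row and 7 were tested, with a median log2 difference of -0.03. At an unadjusted p under 0.05, 1 was lower (Slc11a2), beside 2.27% of all tested genes. With the block 1 was lower (Slc11a2), beside 9.14%, and 1 higher (Cdc14a, by 0.58), beside 12.8%.

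Ratios between genes of a library move less with the scaling of that library than levels do. The 1 FPKM added to each value leaves some effect of scaling on low genes. For 3 pairs an exact two-sided permutation test was run over the 35 splits of 3 against 4 libraries, whose smallest p is 0.0286. The log2 ratio of Fth1 to Ftl1 (from FPKM + 1) was 0.96, 1.97 and 1.77 in the CD34-positive libraries, against 0.56, 1.09, 0.79 and 1.10 in the CD34-negative libraries. The groups overlapped through CD34-positive replicate 1 alone, which lay below CD34-negative replicates 2 and 4. The mean ratio was 1.57 ± 0.54 in CD34-positive and 0.89 ± 0.26 in CD34-negative cells (SD, n = 3 and 4), a difference of 0.68 (exact permutation p = 0.114, Benjamini-Hochberg adjusted over the 3 ratios 0.343). Within replicates 1, 2 and 3 the difference was 0.40, 0.88 and 0.82.

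Aco1 to Ireb2 gave a log2 ratio of -0.18, 1.20 and -1.07 in the CD34-positive libraries, against -0.03, 1.98, -0.91 and -0.94 in the CD34-negative libraries, and differed by -0.04 (exact permutation p = 0.914, adjusted 0.914). Replicate 2 was highest in both groups, so the ratio followed the number. For Slc25a37 to Slc25a28 it was -1.44, -1.51 and -0.61 in the CD34-positive libraries, against -1.59, -1.70, -0.998 and -0.14 in the CD34-negative libraries, and differed by -0.08 (exact permutation p = 0.914, adjusted 0.914).

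Set against the receptor, the endosomal genes and transferrin had differences of opposite sign, in ratios added after the values were seen and not tested. The log2 ratio of Steap3 to Tfrc was -2.02, -2.22 and -3.06 in the CD34-positive libraries, against -1.20, -0.16, -1.61 and -2.07 in the CD34-negative libraries. That of Slc11a2 to Tfrc was -2.15, -2.13 and -3.37 in the CD34-positive libraries, against -1.22, -0.22, -1.93 and -2.35 in the CD34-negative libraries. Both were lower in CD34-positive cells within every number, with differences of -0.82 to -2.06 for Steap3 and -0.93 to -1.90 for Slc11a2. Trf to Tfrc was 1.54, 1.18 and 1.19 in the CD34-positive libraries, against 1.19, -0.94, 0.47 and -1.81 in the CD34-negative libraries.

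**Figure D4:**
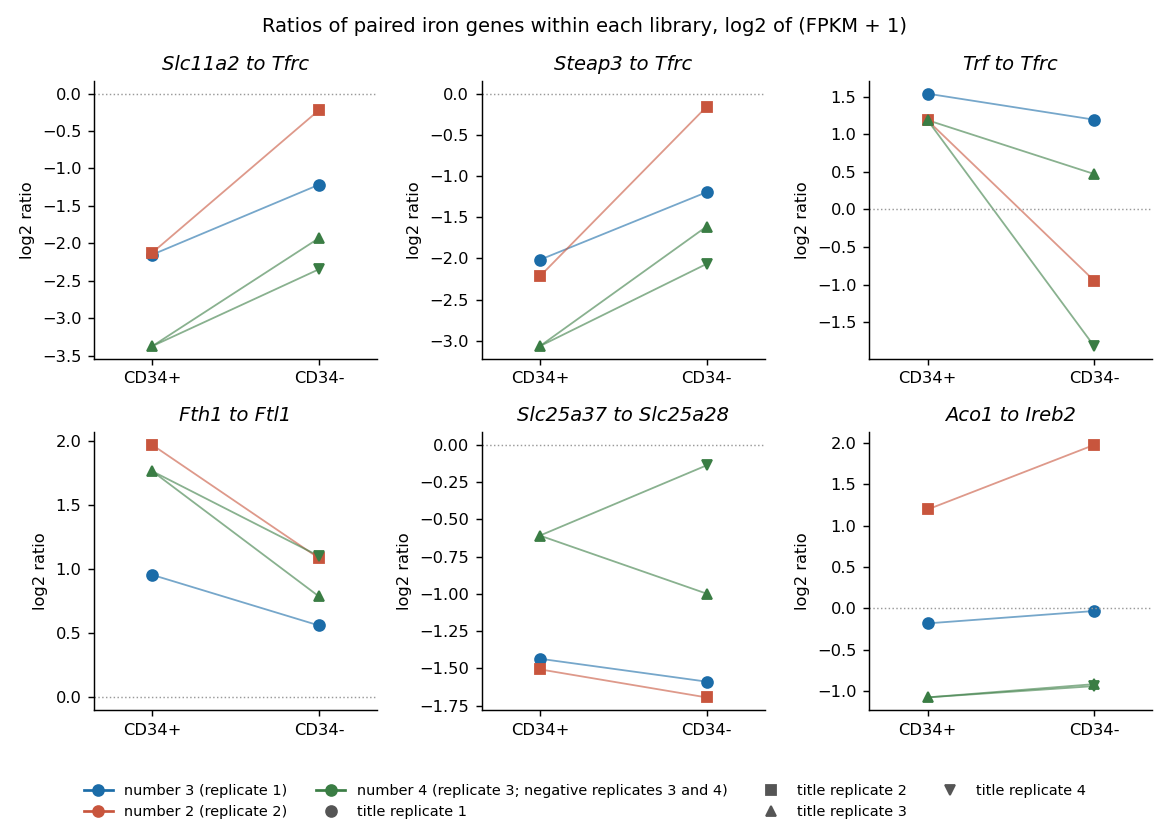
Log2 ratio of FPKM + 1 between 2 genes of the same library, in 6 pairs, with CD34-positive libraries left and CD34-negative libraries right. Fth1 to Ftl1 averages 1.57 in CD34-positive and 0.89 in CD34-negative libraries, and Aco1 to Ireb2 is highest in replicate 2 of both groups (1.20 and 1.98).

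By level per length, averaged within CD34-positive cells, the order was Fth1 (3564 FPKM), Trf (180), Tfrc (72.3), then Ireb2 (15.05), Aco1 (14.0), Steap3 (13.4) and Slc11a2 (12.8), which did not separate beyond their SD of 4.30 to 7.16 FPKM, then Slc25a38 (7.11) and Slc25a37 (5.69), which overlapped too, and Slc40a1 near 0. Slc25a38 did not separate from Slc11a2 beyond the SD of Slc11a2, 6.78 FPKM, yet lay below it in every CD34-positive library. These SD are between libraries and leave out that genes share libraries. In CD34-negative cells Fth1 (2537 FPKM) again came first, and Tfrc (83.9 FPKM) and Trf (81.2) did not separate beyond their SD of 28.5 and 59.9 FPKM. Below them came Steap3 (36.9), Slc11a2 (33.7) and Slc25a38 (22.5), within their SD of 20.7 to 21.7 FPKM. Within every CD34-negative library, though, Steap3 lay above Slc11a2 and Slc11a2 above Slc25a38. Trf does not separate from these genes beyond its own SD. Ireb2 (14.5) and Aco1 (13.2) followed, which do not separate from Slc11a2 or Slc25a38 beyond the SD of those. Aco1 still lay below Slc11a2 in every CD34-negative library. Slc25a37 (6.39) came next, within the SD of Slc25a38 but below it in every CD34-negative library, with Slc40a1 again near 0.

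For 3 members the tested genes most like them over the 7 libraries were listed by Pearson correlation of log2(FPKM + 1), as a description. The 7 points share the groups, the numbers and the scaling. Trf was most like Anxa3, an annexin (r = 0.985), at 328 to 400 FPKM in CD34-positive and 127 to 365 FPKM in CD34-negative libraries, then Camk2g (0.984), Aktip (0.984), Wnt9a (0.982) and Gramd3 (0.980). Slc25a37 was most like Mir17hg, the host transcript of a microRNA cluster (r = 0.992), then Rmnd1 (0.975), Fam45a (0.973), Gas5 (0.967) and Pnpt1 (0.964). Tfrc was most like Trmt11, a subunit of a tRNA methyltransferase (r = 0.951), then the small nucleolar RNAs Snora16a (0.943) and Snord15a (0.940), Fastkd5 (0.932) and Gnl3 (0.912).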

How the data were processed

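The authors deposited 1 table of FPKM, with rows named by gene symbol, for 7 RNA-seq libraries; the tools TopHat2, TopHat and Cuffdiff come from the submitters' processing notes, which list both mm9 and mm10, without saying which applies. No source used here gives the annotation, strand use or fragment numbers; no count model was run and overlapping genes are uncertain; no FPKM value was tied to a coordinate. Groups follow the titles. The 105 symbols listed more than once (322 rows, no member) were left out. Genes reaching 1 FPKM in 3 or more libraries were compared as log2(FPKM + 1), CD34-positive minus CD34-negative, with limma 3.58.1 in R 4.3.3 (mean-variance trend, two-sided, Benjamini-Hochberg over all tested genes, threshold 0.05). The procedure was tested on simulated data with independent noise and no effect of the description number. How it performs with such an effect was not tested. Differences on this scale understate those of low genes. Equal description numbers deviated together (r = 0.70, 0.92, 0.82 and 0.85, against -0.86 to 0.37 for unlike numbers), so a fit with the number as a block was also run. The numbers come from the descriptions, which do not say what they mark. Named genes are the members, Cd34, up to 4 genes of each list with the smallest p, and 5 correlated genes for Slc25a37, Tfrc and Trf; others are marked where named. Members and lists were chosen with earlier results of these data known. Alternatives changed scaling, pseudocount, filter, pairing and libraries.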

Additional observations from a re-analysis of the deposited data

Results flagged for a closer look

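In CD34-negative replicate 2, Ireb2 was low against the other CD34-negative libraries, at 3.86 FPKM. The gap to its nearest neighbour was 0.879 of the whole range of the 4 libraries on the log2 scale, above Dixon's 95% limit for 4 samples. It was the only such case among 41 named genes, where chance gives about 1 in 20. In CD34-positive cells replicate 2 was the lowest library for Ireb2 too, at 6.87 FPKM.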

How the results depend on the processing

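Steap3, Slc11a2, Slc25a38, Trf and Fth1 kept their direction in all 28 alternatives, with log2 differences of -1.77 to -0.96 for Steap3 (unadjusted p under 0.05 in 26), -1.71 to -0.81 for Slc11a2 (21), -1.80 to -0.73 for Slc25a38 (17), 0.92 to 1.84 for Trf (18) and 0.11 to 0.95 for Fth1 (1). The alternatives are not all separate checks. With the block, leaving out either or both replicate 1 libraries gave the same estimates. Leaving out CD34-positive or CD34-negative replicate 2 also gave equal estimates. The members near 0 changed sign and no cause was tested. Aco1 turned to -0.0491 with the replicate block by description number, -0.0325 with the block by title number, -0.066 with the block and without both replicate 1 libraries, -0.015 with median-ratio scaling, -0.049 with CD34-negative replicates 3 and 4 averaged, and, after rescaling without ribosomal protein and small RNA genes, -0.0392, or -0.0317 with the block. Slc25a37 turned to 0.096 with the block by title number, 0.0231 with the block and without both replicate 1 libraries, and, with the block, 0.14 after rescaling without ribosomal protein genes and 0.0033 when small RNA genes were left out too. Tfrc turned to 0.0428 with the block by title number and 0.0132 with the block after rescaling without ribosomal protein genes, and Ireb2 to -0.0059 with quantile normalization and -0.0044 after rescaling without ribosomal protein and small RNA genes. Slc25a37 to Slc25a28 turned to 0.0869 with CD34-negative replicates 3 and 4 averaged. Leaving out 1 library, with or without the block, gave -0.0737 to 0.347 for Aco1, -0.37 to 0.58 for Ireb2, -0.375 to 0.0965 for Slc25a37, -0.289 to 0.0428 for Tfrc, -0.65 to 0.61 for Aco1 to Ireb2 and -0.37 to 0.24 for Slc25a37 to Slc25a28. It gave 0 to 2 members past the adjusted threshold, 0 to 2 higher and 0 to 3 lower at an unadjusted p under 0.05, 0 to 1 higher and 1 to 3 lower members without overlap, 0 to 5 higher and 0 to 13 lower other iron genes, 2 to 7 lower heme genes, and 0 to 236 higher and 0 to 137 lower genes of the table past the adjusted threshold. For overlap and the unadjusted p, no share of all tested genes was taken with a library left out. Those counts are therefore no result about iron genes. Of the other alternatives only the block by description number had such shares, 12.8% higher and 9.14% lower at that p. Higher and lower iron genes outside the members, at the same p, numbered 2 and 8 with the block by description number and 3 and 7 by title number; with the block they numbered 2 and 7 without both replicate 1 libraries, 1 and 3 after rescaling without ribosomal protein genes and 2 and 5 when small RNA genes were left out too. Lower heme genes numbered 6, 6, 7, 5 and 6 in these settings, and 5 with no filter, with quantile normalization and after rescaling without ribosomal protein and small RNA genes. With the block, 4 members, 436 higher and 151 lower genes passed the adjusted threshold after rescaling without ribosomal protein genes, and 2 members, 159 higher and 72 lower genes without both replicate 1 libraries; no other call over all genes changed with the block and all libraries. Members lower at an unadjusted p under 0.05 numbered 1 with no filter and 0 without both replicate 1 libraries, and higher ones 0 with quantile normalization or with CD34-negative replicates 3 and 4 averaged. With no filter 1 other iron gene was higher. That average left 3 lower members without overlap, and rescaling without ribosomal protein genes 1 higher. The share of all tested genes without overlap was not taken there, so these counts cannot be set beside other genes. Rescaling without ribosomal protein and small RNA genes moved the median of all genes by -0.12. Lacking fragment numbers, the limits that depth sets could not be given.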
